A study of Mus with 12 samples.

Results

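The immunity-related GTPases (IRGs) are a family of interferon-inducible GTP-binding proteins of the mouse. The 7 genes described here, Irgm1, Irgm2, Igtp, Iigp1, Tgtp1, Tgtp2 and Ifi47, were chosen by symbol, and each had 1 row among the 27294 genes of the expression table. All 7 passed the low-count filter that left 17291 genes for testing. They were measured by poly(A) RNA sequencing of 12 libraries whose source is labelled as primary mouse peritoneal macrophages, the phagocytes of the abdominal cavity. The 4 groups of 3 libraries were knockout (KO) with oxidised low-density lipoprotein (oxLDL, a modified cholesterol carrier that macrophages take up), wild type (WT) with oxLDL, untreated KO and untreated WT. The treatment label says oxLDL while the titles of the same libraries say LDL, and untreated libraries carry no treatment label. No gene is given in the genotype label KO, though the title of the series mentions WEE1, a kinase delaying mitosis. The sources used here give no strain, age, dose, duration or means of deletion. Nor do they say whether the libraries of a group came from separate mice, so p-values measure only the spread between these libraries.

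As background, interferon-γ binds its receptor on macrophages and, through the kinases JAK1 and JAK2 and the transcription factor IRF1, turns on IRG genes, and type I interferons act on many of the same genes through STAT2 and IRF9. The effector IRG proteins load onto the vacuole that encloses an intracellular parasite such as Toxoplasma gondii and break it open. The regulatory IRG proteins sit on the cell's own membranes and hold the effectors in their inactive, GDP-bound state, which keeps them off those membranes. Regulators carry the residues GMS, and effectors GKS, in the first nucleotide-binding motif.

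The regulators here were Irgm1 (ENSMUSG00000046879), Irgm2 (ENSMUSG00000069874) and Igtp (ENSMUSG00000078853), the last also known as Irgm3. The effectors were Iigp1 (ENSMUSG00000054072), known as Irga6, Tgtp1 (ENSMUSG00000078922) and Tgtp2 (ENSMUSG00000078921), which encode forms of Irgb6, and Ifi47 (ENSMUSG00000078920), known as Irgd. Positions are on GRCm38. Iigp1 lies alone of the 7 on chromosome 18, from 60376027 to 60392634 on the plus strand. One cluster on chromosome 11 holds Irgm1 (48861968 to 48871683, minus strand), Tgtp1 (48985327 to 48994172, minus strand), Tgtp2 (49057194 to 49064206, minus strand) and Ifi47 (49076587 to 49096974, plus strand). A second cluster on chromosome 11 holds Igtp (58199556 to 58207591) and Irgm2 (58199618 to 58222782), whose annotated spans overlap on the plus strand. Tgtp1 and Tgtp2 are near-identical copies, and Tgtp1 also overlaps Gm12185 on its own strand, so reads of these genes could not be assigned apart with certainty. Olfr56, on the plus strand, overlaps Tgtp1, Tgtp2 and Ifi47, and without a stated strand setting its reads cannot be told apart from theirs.

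Library totals ran from 53588814 to 76809931 counts, and WT replicate 2 was the shallowest with and without oxLDL. Wee1 had 1.30, 1.60 and 1.25 FPKM (fragment counts scaled to transcript length and library size, made by the authors) in KO libraries with oxLDL, against 1.44, 1.78 and 1.63 FPKM in WT libraries with oxLDL. It had 1.63, 1.60 and 1.22 FPKM in untreated KO libraries, against 3.09, 3.25 and 2.80 FPKM in untreated WT libraries. The untreated groups did not overlap, those with oxLDL did, and Wee1 was absent from no library. KO against WT was -0.53 ± 0.14 on the log2 scale with oxLDL and -0.93 ± 0.14 untreated (SE), both called lower.

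Among the regulators, Irgm1 had 8.64, 9.04 and 8.62 FPKM in KO libraries with oxLDL, against 128, 129 and 136 FPKM in WT libraries with oxLDL. In untreated KO libraries it had 8.91, 8.84 and 8.87 FPKM, against 69.9, 66.2 and 62.4 FPKM in untreated WT libraries. All 6 KO libraries were low, between 8.62 and 9.04 FPKM, and no KO value reached a WT value. Among all genes tested, 31.2% lay lower in KO without overlap untreated and 21.1% with oxLDL. Irgm1 is the regulator whose loss in mice is known to impair resistance to intracellular bacteria and blood cell formation.

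Irgm2, a regulator found on the Golgi apparatus, had 6.56, 6.86 and 7.52 FPKM in KO libraries with oxLDL, against 126, 131 and 130 FPKM in WT libraries with oxLDL. Untreated, it had 6.83, 7.80 and 7.38 FPKM in KO libraries, against 75.9, 73.1 and 68.4 FPKM in WT libraries. The oxLDL and untreated KO libraries overlapped, and the oxLDL and untreated WT libraries did not. Igtp, a regulator of the endoplasmic reticulum, had 4.83, 6.20 and 4.88 FPKM in KO libraries with oxLDL, against 164, 169 and 174 FPKM in WT libraries with oxLDL. Its untreated values were 5.86, 5.93 and 5.97 FPKM in KO libraries, against 57.0, 53.8 and 47.8 FPKM in WT libraries. Igtp thus had the same separation, with WT libraries far above KO libraries under both conditions.

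Of the effectors, Iigp1, which coats the parasite's vacuole, was the closest to zero in KO libraries. It had 0.0641, 0.132 and 0.194 FPKM in KO libraries with oxLDL, against 63.4, 69.6 and 74.1 FPKM in WT libraries with oxLDL. In untreated libraries it had 0.0421, 0.0662 and 0.0911 FPKM for KO, against 12.7, 10.7 and 9.90 FPKM for WT. These KO values rested on 31, 62 and 91 counts with oxLDL and on 20, 32 and 42 counts untreated, against at least 3584 counts in every WT library. The KO libraries were low throughout and varied more among themselves than those of other members, with a coefficient of variation of 49.8% with oxLDL.

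Tgtp1 had 0.202, 0.266 and 0.293 FPKM in KO libraries with oxLDL, against 65.3, 66.9 and 69.5 FPKM in WT libraries with oxLDL. Without treatment it had 0.195, 0.253 and 0.183 FPKM in KO libraries, against 16.4, 14.6 and 12.9 FPKM in WT libraries. The highest KO library, at 0.293 FPKM, lay far below the lowest WT library, at 12.9 FPKM. Tgtp2, its close copy, had 0.749, 0.772 and 1.08 FPKM in KO libraries with oxLDL, against 207, 209 and 224 FPKM in WT libraries with oxLDL. Untreated, the values were 0.510, 0.968 and 0.643 FPKM in KO libraries, against 66.2, 59.5 and 52.5 FPKM in WT libraries. As deposited, Tgtp2 had the higher FPKM of the pair in each of the 12 libraries. How reads were split between these near-identical copies is not known, so their relative abundance is uncertain.

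Ifi47, the effector of the Irgd type, had 3.41, 4.64 and 3.46 FPKM in KO libraries with oxLDL, against 205, 212 and 229 FPKM in WT libraries with oxLDL. Its untreated libraries had 2.96, 3.17 and 3.36 FPKM for KO, against 80.2, 82.5 and 74.3 FPKM for WT. Ifi47 alone of the 7 had oxLDL KO libraries that did not overlap the untreated KO libraries, although the gap between them was small beside the distance to WT. Of all genes tested, 7.54% were higher in oxLDL KO libraries without overlap, so 1 in 7 members gives no result about the family.

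**Figure D1:**
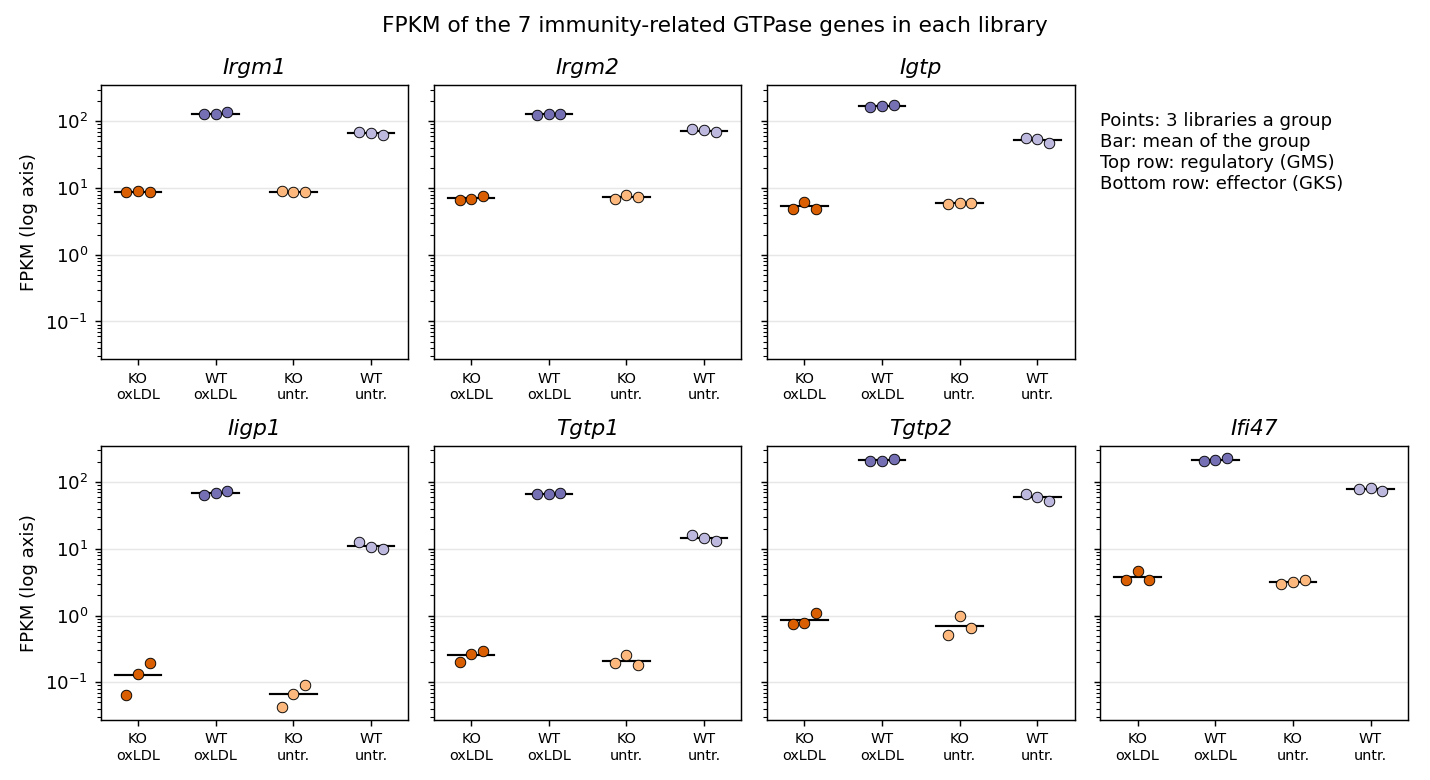
FPKM on a log axis of Irgm1, Irgm2, Igtp (top row, regulators), Iigp1, Tgtp1, Tgtp2 and Ifi47 (bottom row, effectors) in KO with oxLDL, WT with oxLDL, untreated KO and untreated WT libraries. Points are the 3 libraries of a group and bars their mean. In each panel the KO points lie below all WT points, and Iigp1 spans the widest range, with means of 0.0665 FPKM in untreated KO and 69.0 FPKM in WT with oxLDL.

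In WT macrophages all 7 IRG genes rose with oxLDL relative to untreated cells. Across all genes tested, 51.2% were called in this comparison and 23.9% were called higher, at a Benjamini-Hochberg adjusted p under 0.05 in edgeR's quasi-likelihood test. The changes are fitted log2 values on the TMM scale, an estimate of scaling from the bulk of genes, so they need not equal the ratio of FPKM means. Iigp1 rose most, by a log2 change of 3.04 ± 0.15 (SE), which is 8.23-fold, with an adjusted p of 3.19e-10 in edgeR's test. The other effectors rose by 2.61 ± 0.09 for Tgtp1, 2.25 ± 0.14 for Tgtp2 and 1.85 ± 0.09 for Ifi47. The regulators rose by 2.08 ± 0.08 for Igtp, 1.39 ± 0.05 for Irgm1 and 1.24 ± 0.06 for Irgm2. The smallest of these, that of Irgm2, was 2.36-fold with an adjusted p of 3.7e-10, and the largest adjusted p was 2.96e-09, for Tgtp2. All 3 oxLDL libraries lay above all 3 untreated libraries for each gene, as they did for 15.2% of all genes tested. The median log2 change of the 7 was 2.08, and that of all genes tested was -0.06. With library totals in place of TMM, the median of all genes tested moved to -0.46, and Irgm1 and Irgm2 were then at 0.98 and 0.83, both still called. With log2(FPKM + 1) in limma, Irgm2 was at 0.82.

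In KO macrophages none of the 7 genes was called for oxLDL against untreated cells by edgeR's test, and 0.0116% of all genes tested were. Iigp1 had a log2 difference of 0.94 ± 0.36 with an adjusted p of 0.583, and Ifi47 one of 0.27 ± 0.10 with an adjusted p of 0.525. These 2 were the members with an unadjusted p under 0.05, at 0.0217 and 0.0161. The differences were 0.26 ± 0.19 for Tgtp1, 0.29 ± 0.21 for Tgtp2, -0.02 ± 0.05 for Irgm1, -0.07 ± 0.06 for Irgm2 and -0.16 ± 0.09 for Igtp. DESeq2 and limma-voom also called 0 of the 7. The median of the 7 was 0.26, against -0.00 for all genes tested. Summed over the 7 genes, the level was 26.1 ± 1.72 FPKM with oxLDL and 26.3 ± 0.88 FPKM untreated in KO libraries (SD, n = 3 each). The same sum was 994 ± 39.9 FPKM in WT libraries with oxLDL and 356 ± 25.4 FPKM in untreated WT libraries.

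Without treatment all 7 genes were lower in KO than in WT macrophages, in a comparison where 16.2% of all genes tested were called lower and 14.8% higher. The effectors Iigp1, Tgtp2 and Tgtp1 differed by -7.24 ± 0.23, -6.28 ± 0.18 and -5.98 ± 0.13 on the log2 scale, which is 151-fold, 77.5-fold and 63.3-fold lower. Ifi47 differed by -4.53 ± 0.10. For the regulators Irgm2, Igtp and Irgm1 the differences were -3.20 ± 0.07, -3.05 ± 0.09 and -2.79 ± 0.05, so that Irgm1 was 6.93-fold lower. The adjusted p in edgeR's test was 5.6e-12 for Iigp1 and 4.1e-14 for Irgm1. The 3 regulators had the 3 smallest differences, and the effector with the smallest, Ifi47, lay beyond all of them by more than the standard errors. The difference between regulators and effectors was not tested as such. The median of the 7 was -4.53, and that of all genes tested -0.01. The size of the largest differences depends on how low values are handled: with limma on log2(FPKM + 1), Iigp1 differed by -3.50 and Tgtp1 by -3.68, since values near zero are pulled towards the added 1 FPKM.

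With oxLDL the 7 genes were again all lower in KO than in WT, where 57.9% of all genes tested were called and 27.4% were called lower. Iigp1 differed by -9.34 ± 0.22 on the log2 scale, 647-fold, and by -5.95 with limma on log2(FPKM + 1). Tgtp1 and Tgtp2 differed by -8.33 ± 0.13 and -8.24 ± 0.19, and Ifi47 by -6.11 ± 0.11. The regulators differed by -5.30 ± 0.10 for Igtp, -4.51 ± 0.07 for Irgm2 and -4.20 ± 0.05 for Irgm1, the last being 18.4-fold. The adjusted p of the 7 in edgeR's test was at most 3.81e-14, that of Iigp1. The median was -6.11, against 0.05 for all genes tested.

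The genotype by oxLDL interaction, which is the change with oxLDL in KO less the change in WT, was below zero for all 7 genes, where 19.6% of all genes tested were called below zero and 22.1% above. It was -1.41 ± 0.07 for Irgm1, -1.31 ± 0.09 for Irgm2 and -2.24 ± 0.12 for Igtp among the regulators. Among the effectors it was -2.10 ± 0.42 for Iigp1, -2.35 ± 0.22 for Tgtp1, -1.96 ± 0.25 for Tgtp2 and -1.58 ± 0.13 for Ifi47. Iigp1 had the largest adjusted p of the 7 in edgeR's test, 0.00105, and the largest standard error. The median was -1.96, against 0.08 for all genes tested. These comparisons share libraries with those above, so the interaction is no separate observation of the WT rise or of the KO level.

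**Figure D2:**
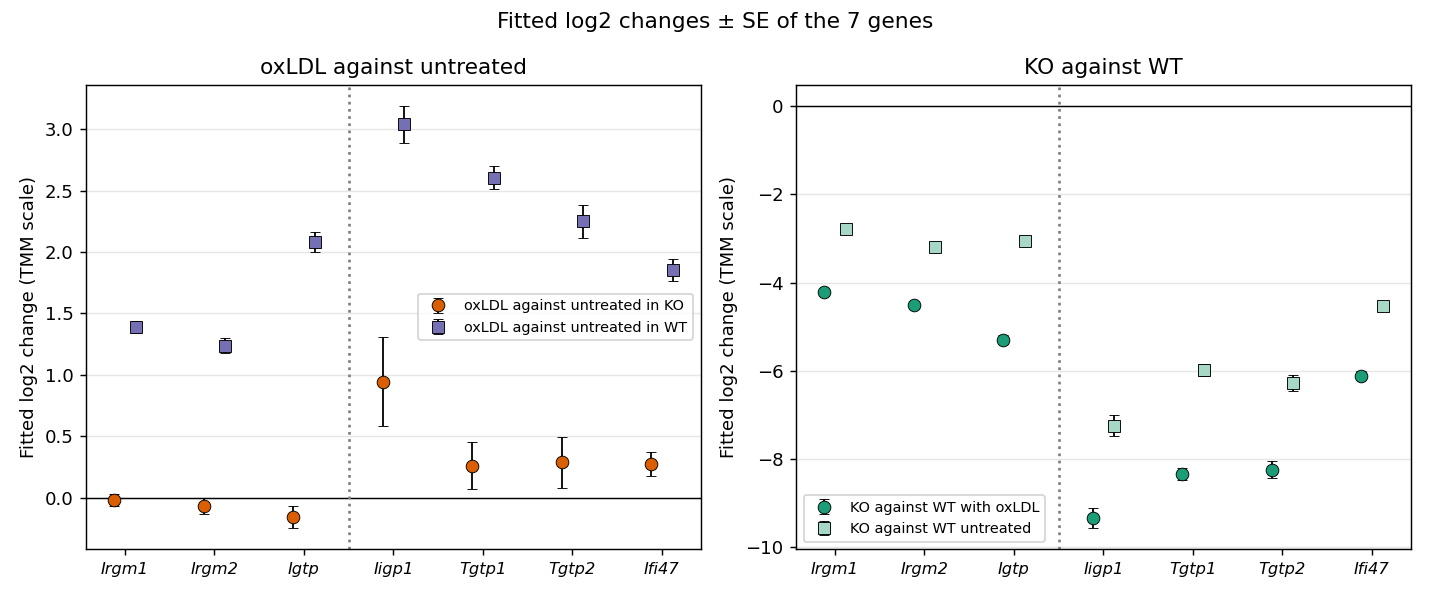
Fitted log2 changes ± SE of the 7 genes, regulators left of the dotted line and effectors right of it. The left panel gives oxLDL against untreated in KO (circles) and in WT (squares), and the right panel KO against WT with oxLDL (circles) and untreated (squares). The WT squares on the left run from 1.24 to 3.04 and the KO circles from -0.16 to 0.94, and on the right every point lies at -2.79 or below.

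Since reads of near-identical or overlapping genes may have been split between them, the differences were also computed on summed counts. Tgtp1 and Tgtp2 together gave 0.28 ± 0.19 for oxLDL in KO and 2.33 ± 0.13 for oxLDL in WT. The summed Tgtp pair was lower in KO than in WT by -8.26 ± 0.18 with oxLDL and by -6.21 ± 0.17 untreated. Irgm2 and Igtp together gave -0.10 ± 0.06 for oxLDL in KO and 1.53 ± 0.06 for oxLDL in WT. KO against WT was -4.78 ± 0.07 with oxLDL and -3.15 ± 0.06 untreated for that pair. Summed or apart, both pairs were called in the same comparisons and directions.

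The make-up of the summed IRG level differed between the groups. In FPKM, which is per transcript length and so allows levels of different genes to be compared, the regulators made up 80.6 ± 1.36% of the sum in KO with oxLDL and 43.2 ± 0.61% in WT with oxLDL. They made up 84.2 ± 0.98% in untreated KO and 53.9 ± 0.48% in untreated WT (SD, n = 3 each). No KO library overlapped a WT library in this share, and WT libraries with oxLDL did not overlap untreated ones, although an exact two-sided permutation test of 3 libraries against 3 cannot go below p = 0.1. As its reads were assigned, Tgtp2 shifted furthest among the effectors by genotype, with 3.33 ± 0.73% of the sum in KO and 21.5 ± 0.25% in WT with oxLDL. Irgm1 held 33.6 ± 1.53% in KO and 13.2 ± 0.13% in WT with oxLDL. Because the shares add up to a whole, a lower share of one member is not a lower level of it.

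The order of the 7 levels differed as well, though the places of Tgtp1 and Tgtp2 in it rest on how their reads were split. Among KO libraries of either treatment the order in FPKM, high to low, was Irgm1, Irgm2, Igtp, Ifi47, Tgtp2, Tgtp1 and Iigp1, and no neighbours in it overlapped. In WT with oxLDL, Ifi47 (215 ± 12.3 FPKM) and Tgtp2 (213 ± 9.33 FPKM) came first and overlapped, followed by Igtp (169 ± 5.09 FPKM). Irgm1 (131 ± 4.54 FPKM) and Irgm2 (129 ± 2.83 FPKM) overlapped next, and Iigp1 (69.0 ± 5.34 FPKM) and Tgtp1 (67.2 ± 2.13 FPKM) overlapped at the end. In untreated WT libraries each neighbour from Ifi47 (79.0 ± 4.24 FPKM) through Irgm2, Irgm1 and Tgtp2 to Igtp (52.9 ± 4.68 FPKM) overlapped the next. Tgtp1 (14.6 ± 1.72 FPKM) and Iigp1 (11.1 ± 1.45 FPKM) stood clearly below these and did not overlap. Iigp1 and Tgtp1, lowest in the untreated WT group, thus had the largest oxLDL changes there.

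**Figure D3:**
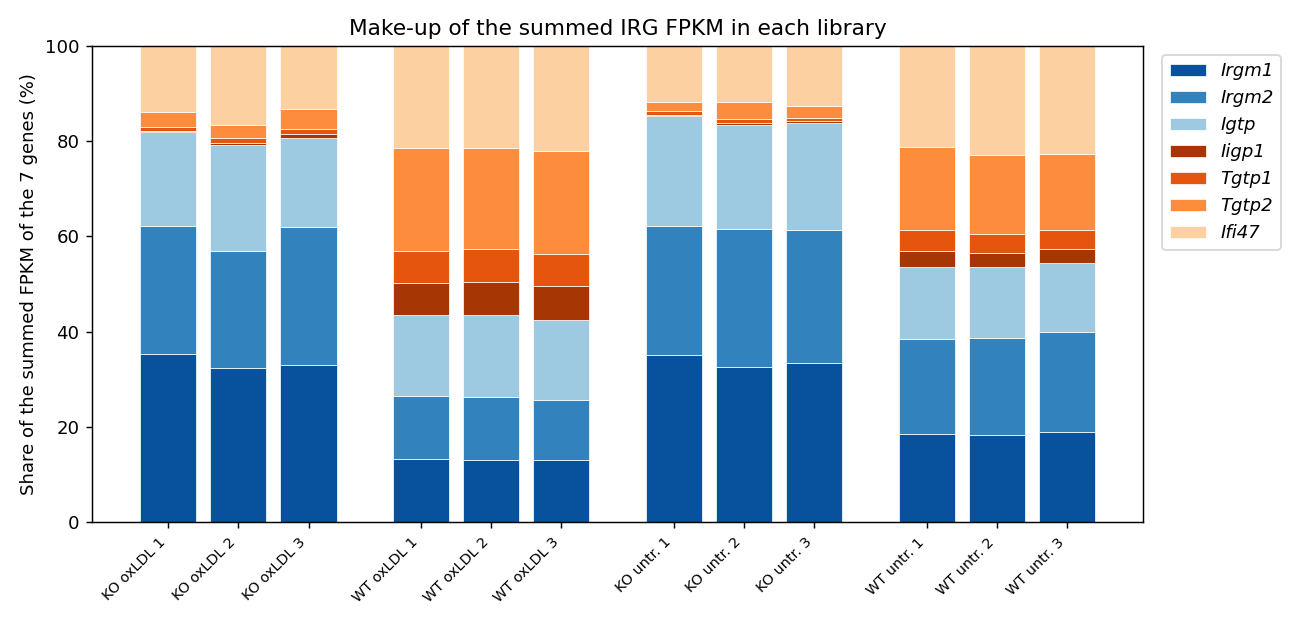
Share in percent of the summed FPKM of the 7 genes held by each gene, 1 bar a library, in KO with oxLDL, WT with oxLDL, untreated KO and untreated WT. Blue shades are the regulators and orange shades the effectors. The blue part ends between 79.2 and 85.3% in KO libraries, between 42.5 and 43.6% in WT libraries with oxLDL and between 53.6 and 54.4% in untreated WT libraries.

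Further IRG family genes were in the table, and most moved the way the 7 did. Of 11 tested, 7 rose and 1 fell with oxLDL in WT, none was called with oxLDL in KO, 1 was higher and 8 lower in untreated KO than in untreated WT, and 2 were higher and 8 lower in KO with oxLDL than in WT with oxLDL. Their median log2 difference was 1.65 for oxLDL in WT and -1.69 for KO against WT untreated. The directions of small changes rest on the TMM scale. 9930111J21Rik1, called higher with oxLDL in WT by 0.24, had a mean of 21.1 FPKM there and 23.8 FPKM in untreated WT. Gm12250, which RefSeq lists as Irgb10 and which lies beside Igtp, had 2.76, 3.14 and 2.55 FPKM in KO and 141, 143 and 148 FPKM in WT with oxLDL. Its untreated levels were 2.62, 2.55 and 3.14 FPKM in KO and 60.7, 62.9 and 58.5 FPKM in WT. It rose by 1.65 ± 0.07 with oxLDL in WT, within the range of the regulators among the 7, 1.24 to 2.08. In KO it was lower by -5.97 ± 0.09 with oxLDL and -4.34 ± 0.08 untreated. These 2 differences lie between those of the regulators and the effectors among the 7. Gm4951, a neighbour of Iigp1 on chromosome 18, was lower in untreated KO by -7.32 ± 0.20, close to Iigp1 itself. F830016B08Rik, also on chromosome 18, had 0 counts in KO with oxLDL and 1681 counts over the 3 WT libraries with oxLDL, at least 780-fold lower when 3 counts are taken as the floor of a group. The copies 9930111J21Rik1 and 9930111J21Rik2 moved least among those called lower in untreated KO, by -0.88 ± 0.05 and -0.69 ± 0.06. Irgq, a more distant member of the family, went the other way, falling with oxLDL in WT by -0.72 ± 0.09 and being higher in KO by 1.02 ± 0.09 with oxLDL and 0.29 ± 0.09 untreated.

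The genes listed for interferon-γ signalling, which include inhibitors such as Socs3 and Pias1 beside activators, were mostly lower in KO too. Of 16 tested, 14 rose and 1 fell with oxLDL in WT, 0 were called with oxLDL in KO, and 10 were lower and 1 higher in untreated KO than in untreated WT. With oxLDL, 14 were lower and 1 higher in KO than in WT. Ciita and Ptpn1 were among the rises on the TMM scale, though their mean FPKM in WT was not higher with oxLDL. It was 2.81 with oxLDL and 2.85 untreated for Ciita, and 40.7 and 40.8 for Ptpn1. Ifng, the ligand, had 0, 0 and 4 counts in KO libraries with oxLDL, against 1508, 1200 and 1423 counts in WT libraries with oxLDL. In untreated libraries it had 8, 0 and 2 counts for KO, against 71, 48 and 47 counts for WT. The WT libraries with oxLDL were thus the only ones above 100 counts, and the rise there was 5.07 ± 0.33 on the log2 scale. Ifngr1, the ligand-binding receptor chain, went the other way: it fell with oxLDL in WT by -1.31 ± 0.05, was higher in KO with oxLDL by 1.22 ± 0.05 and differed by -0.05 ± 0.05 between untreated genotypes, which was not called. Ifngr2, the second chain, was lower in KO by -0.33 ± 0.04 with oxLDL and higher by 0.29 ± 0.04 untreated. The lower value with oxLDL rests on the TMM scale, since FPKM overlapped there, at 51.3 to 53.1 in KO and 51.8 to 55.5 in WT. Of the kinases, Jak2 rose by 2.79 ± 0.06 with oxLDL in WT and was lower in KO by -1.39 ± 0.06 untreated.

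Irf1, a transcription factor that binds IRG promoters, had 7.69, 7.85 and 8.03 FPKM in KO with oxLDL, against 221, 197 and 214 FPKM in WT with oxLDL. It had 6.22, 6.76 and 7.50 FPKM in untreated KO, against 91.1, 84.9 and 83.2 FPKM in untreated WT. The KO libraries were low under both conditions and overlapped no WT library. KO against WT was -5.05 ± 0.08 with oxLDL and -3.56 ± 0.07 untreated, and oxLDL in WT gave a rise of 1.69 ± 0.07. The feedback inhibitor Socs3 rose by 3.98 ± 0.07 with oxLDL in WT, and Pias1, an inhibitor of the pathway, was called in no comparison.

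Type I interferon signalling genes gave 7 rises and 0 falls among 9 tested with oxLDL in WT, 0 calls with oxLDL in KO, and 7 lower and 0 higher in KO than in WT under either condition. Irf7, a transcription factor of the type I response, rose by 2.06 ± 0.09 with oxLDL in WT and was lower in untreated KO by -4.54 ± 0.10. Stat2 rose by 1.42 ± 0.05 with oxLDL in WT and was lower in untreated KO by -2.36 ± 0.05, and the same values were 3.12 ± 0.10 and -2.87 ± 0.11 for Usp18, which dampens receptor signalling. Ifnb1, the ligand, had 0 counts in all KO libraries with oxLDL against a sum of 20 counts in WT with oxLDL, and 0 counts in untreated KO against 8 counts in untreated WT. Among the guanylate binding proteins, a related family of interferon-inducible GTPases that act at the same vacuoles, 10 of 11 rose and 1 fell with oxLDL in WT, and 11 of 11 were lower in KO with oxLDL and untreated. Gbp2 had 6.59, 8.60 and 8.25 FPKM in KO with oxLDL, against 961, 983 and 1010 FPKM in WT with oxLDL, and the member that fell with oxLDL in WT was Gbp8, by -0.57 ± 0.12.

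The autophagy conjugation genes, whose products are needed for IRG loading onto vacuoles, did not share this direction. Of 16 tested, 6 rose and 6 fell with oxLDL in WT, and 8 were higher and 3 lower in untreated KO than in untreated WT. In KO with oxLDL, 7 were higher and 7 lower than in WT with oxLDL. Over all genes tested, 23.9% rose and 27.2% fell with oxLDL in WT. The shares higher and lower in KO were 14.8% and 16.2% untreated, and 30.6% and 27.4% with oxLDL. The same shares stand beside the counts of the lists above, and no list was tested as a set. Atg7, the activating enzyme of the conjugation system, was higher in KO by 1.73 ± 0.06 with oxLDL and 0.57 ± 0.06 untreated. Gabarapl1, an autophagosome membrane protein of the GABARAP group, was higher in KO by 1.57 ± 0.09 with oxLDL. Sqstm1, the autophagy receptor p62, was lower in KO by -1.46 ± 0.04 with oxLDL and rose by 1.18 ± 0.04 with oxLDL in WT. Atg5, which joins ATG12 in the conjugate, differed by -0.01 ± 0.06 between genotypes with oxLDL, which was not called. That value rests on the TMM scale. In FPKM Atg5 was higher in KO with oxLDL without overlap, at 23.0 to 25.6, against 19.3 to 20.6 in WT with oxLDL. The directions of small changes in this list rest on that scale too.

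**Figure D4:**
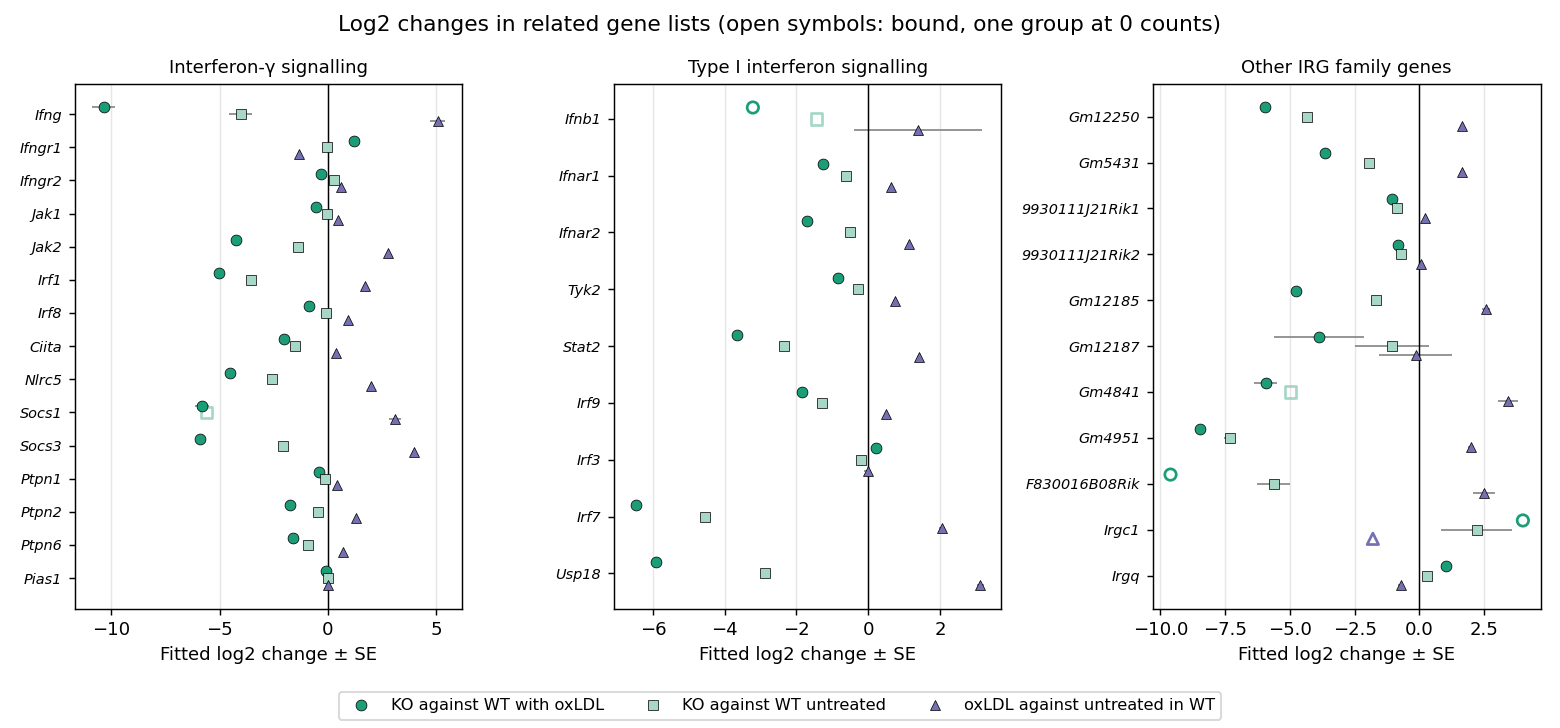
Fitted log2 changes ± SE of genes of interferon-γ signalling, type I interferon signalling and the further IRG family, for KO against WT with oxLDL (circles), KO against WT untreated (squares) and oxLDL against untreated in WT (triangles). Open symbols are bounds where 1 group had 0 counts. Ifng lies at -10.36, -4.03 and 5.07, while Ifngr1 lies at 1.22, -0.05 and -1.31.

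Genes around the 2 chromosome 11 clusters gave a local comparison. Within 250 kb of the Irgm1 cluster, 12 genes outside the IRG family were tested, of which 0 were higher and 4 lower in untreated KO than in untreated WT, with a median log2 difference of -0.00. Rack1, which encodes a ribosomal scaffold protein, differed by -0.02, and Trim41, Zfp62 and Mgat1 by 0.01, 0.17 and 0.11, none of them called. The 4 lower genes lay among the IRG genes or close beyond Ifi47. Psme2b, whose span overlaps the IRG genes 9930111J21Rik1 and Gm12185 on their own strand, differed by -1.51. Olfr56, whose span overlaps Tgtp1, Tgtp2 and Ifi47, differed by -5.66. Gm12188, which overlaps Ifi47, and Olfr1396 had 0 counts in untreated KO and 66 and 27 counts in untreated WT. Within 250 kb of the Igtp cluster, 10 other genes were tested, 0 were higher and 1 was lower in untreated KO, the translation regulator gene Larp1 with -0.61. In this untreated comparison the genes called lower around the clusters were thus IRG genes and genes among or close to them. Larp1 was the exception, and no neighbour was called higher. The shares over all genes tested were 14.8% higher and 16.2% lower untreated, and the neighbours were not tested as a set. With oxLDL, neighbours were called in both directions. Of the 12 around the Irgm1 cluster, 3 were higher and 4 lower in KO. Of the 10 around the Igtp cluster, 5 were higher and 1 lower. The shares over all genes tested were 30.6% higher and 27.4% lower with oxLDL, so these counts give no result about the neighbours. Trim7, near the Irgm1 cluster, was higher in KO with oxLDL by 2.99, and 4930438A08Rik, near the Igtp cluster, by 3.43, both named after their values were seen.

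**Figure D5:**
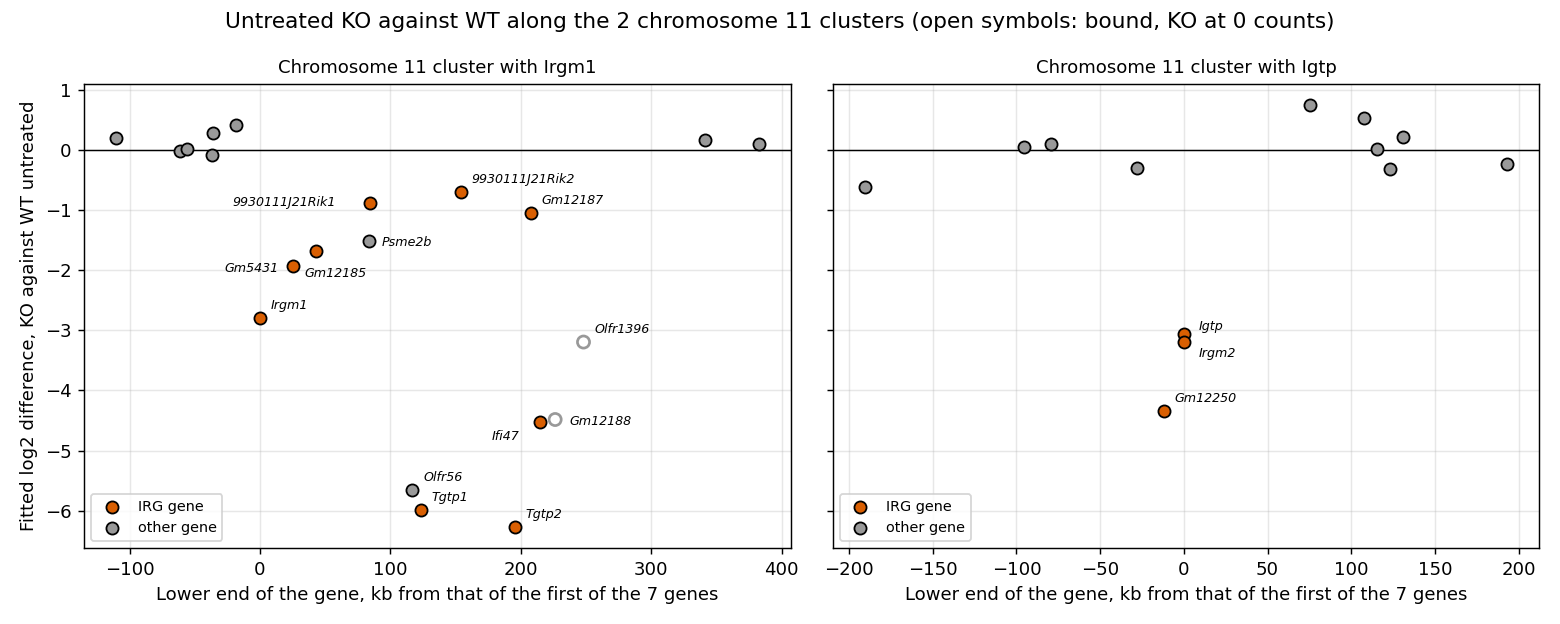
Fitted log2 difference of untreated KO against untreated WT for tested genes within 250 kb of the clusters with Irgm1 (left) and Igtp (right), by the distance in kb of the gene's lower end from that of Irgm1 or Igtp. Orange points are IRG genes, grey points other genes, and open points bounds where KO had 0 counts. Irgm1 lies at -2.79 and Tgtp2 at -6.28, while Rack1, Trim41, Zfp62 and Mgat1 lie between -0.02 and 0.17.

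The file's own annotation gave the 7 genes 6 Gene Ontology terms in common, and the other genes with these terms differed from term to term. For cellular response to interferon-beta, of 39 other tested genes 32 rose and 1 fell with oxLDL in WT and 0 were called with oxLDL in KO. In untreated KO 1 was higher and 29 lower than in untreated WT, with a median of -2.33, and with oxLDL 2 were higher and 33 lower in KO than in WT, with a median of -4.75. The members' own medians, -4.53 and -6.11, were further from zero. For defense response, 6 of 44 other genes were higher and 28 lower in untreated KO, with a median of -1.64. For GTPase activity 53 of 256 were higher and 64 lower, with a median of -0.01, and for GTP binding 67 of 326 were higher and 82 lower, with a median of -0.02. Genes of the endoplasmic reticulum membrane gave 195 higher and 108 lower of 673, with a median of 0.06, and genes of the membrane term 1133 higher and 997 lower of 4916, with a median of 0.01. Over all genes tested, 14.8% were called higher and 16.2% lower in untreated KO, and 30.6% higher and 27.4% lower in KO with oxLDL. With oxLDL in WT, 23.9% rose and 27.2% fell. The terms overlap and were not used as tests.

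Likeness to the 7 was measured as the root mean square difference, over the 12 libraries, between a gene's centred log2 CPM (library-scaled counts) and the mean of the members. The 10 most alike of all other genes tested were Irf7 (0.097), Gbp9 (0.128), Zbp1 (0.202), Slfn1 (0.236), Ccser1 (0.237), Pilrb1 (0.261), Pilra (0.272), Cd38 (0.276), Gbp2 (0.299) and Lox (0.307). Of the 7 themselves, Ifi47 was nearest to the mean at 0.216 and Iigp1 furthest at 1.42. Between members the closest pair was Irgm1 and Irgm2, at 0.198, followed by Tgtp1 and Tgtp2, at 0.208. The furthest was Iigp1 and Irgm1, at 2.52. The log2 CPM used here adds a prior count of 2, which shrinks differences of genes near zero. Ccser1 ranked as alike although its fitted KO differences were -7.47 untreated and -8.65 with oxLDL. The members' medians were -4.53 and -6.11. These distances describe 12 libraries in 4 groups and carry no test.

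Markers of macrophages and of several other cell types moved with the genotype, and those of some did not. The 8 macrophage markers summed to 10661 to 11301 FPKM in KO with oxLDL, 14937 to 15918 FPKM in WT with oxLDL, 11097 to 11807 FPKM in untreated KO and 21069 to 21466 FPKM in untreated WT, none being at 0. Most of that sum was Lyz2, the lysozyme of myeloid cells, with 8171 to 8795 FPKM in KO with oxLDL, 12062 to 12913 FPKM in WT with oxLDL, 8614 to 9184 FPKM in untreated KO and 18201 to 18667 FPKM in untreated WT. Of the 8, 7 were lower and 1, Cd68, was higher in KO under both conditions on the TMM scale. Among the 7, Csf1r overlapped in FPKM with oxLDL, at 129 to 138 in KO and 134 to 140 in WT. With oxLDL in WT 6 rose and 2 fell on the TMM scale, and those that fell were Lyz2 and Csf1r. Cd68 and Itgam, counted as rises, had lower mean FPKM in WT with oxLDL. It was 1376 with oxLDL and 1629 untreated for Cd68, and 172 and 202 for Itgam. The 6 natural killer cell markers summed to 0.0167 to 0.138 FPKM in KO with oxLDL, 1.63 to 2.08 FPKM in WT with oxLDL, 0 to 0.0828 FPKM in untreated KO and 1.97 to 2.73 FPKM in untreated WT. All 5 of those tested were lower in KO under both conditions. Klrb1c, which was not tested, went the other way. It had 26 counts over the KO libraries and 8 over the WT libraries with oxLDL, and 24 and 12 untreated. Ncr1, Eomes and Gzma were at 0 counts in all 6 KO libraries, and Ncr1 had 63 to 111 counts in WT libraries. Natural killer and T cells are known as sources of interferon-γ. The 6 T cell markers summed to 11.3 to 11.7 FPKM in KO with oxLDL, 0.991 to 1.11 FPKM in WT with oxLDL, 11.2 to 13.7 FPKM in untreated KO and 2.51 to 2.75 FPKM in untreated WT. That sum was mostly Cd28 in KO libraries, while Cd3e was at 0 in all 6 of them. Of 5 T cell markers tested, 3 were lower and 1 higher in KO under either condition. Cd2 had 102 counts over the KO libraries with oxLDL, against 17 over the WT libraries with oxLDL. The 5 mast cell markers summed to 1.03 to 1.42 FPKM in KO with oxLDL, 3.02 to 3.62 FPKM in WT with oxLDL, 0.793 to 1.47 FPKM in untreated KO and 4.74 to 5.53 FPKM in untreated WT, and 3 of 5 were lower in KO with oxLDL and 5 of 5 untreated. Of the neutrophil markers 2 were tested, S100a8 and Camp, and both were lower in KO under both conditions and rose with oxLDL in WT; the list summed to 1.33 to 1.68 FPKM in KO with oxLDL, 4.93 to 5.49 FPKM in WT with oxLDL, 1.40 to 1.61 FPKM in untreated KO and 3.05 to 3.99 FPKM in untreated WT. Of 4 dendritic cell markers tested, Cd209a was higher in KO under both conditions and the others were not called. Of 6 B cell markers tested, none was called between untreated genotypes, while with oxLDL Cd79b was higher and Pax5 lower in KO. None of the 5 mesothelial markers tested was called between genotypes. The 6 markers of large peritoneal macrophages, the resident type of that cavity, were low in all groups, with sums of 1.72 to 1.79 FPKM in KO with oxLDL, 2.59 to 3.20 FPKM in WT with oxLDL, 1.67 to 1.70 FPKM in untreated KO and 3.74 to 4.12 FPKM in untreated WT. Of these 6, 0 were higher and 2 lower in untreated KO, and 1 was higher and 1 lower in KO with oxLDL. Timd4 had 7 counts over the KO libraries and 692 over the WT libraries untreated, and 50 and 791 with oxLDL. Rarb went the other way, with 74 and 8 counts untreated and 59 and 2 with oxLDL. The part of other cells in the IRG differences was not tested, and in these bulk libraries fewer cells of a type and less RNA per cell cannot be told apart. The labels' protocol mentions adipose RNA, and the adipocyte markers Adipoq and Plin1 summed to at most 0.101 FPKM.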

How the data were processed

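Per the labels' protocols, paired-end reads of poly(A) RNA from 12 libraries were made on an Illumina NovaSeq. The submitters' processing notes name HISAT2 2.0, Bowtie 0.12.2 and build mm8. The deposited coordinates overlapped GRCm38.p6 for 99.9% of 21990 genes matched by Entrez identifier, so GRCm38 is given. The read counter, annotation and strand setting were not given in the sources used here. The deposited table holds the authors' raw read count and FPKM per gene and library, per the file headers, in 24 per-sample columns, all of which were used.

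Counts were fitted with edgeR 4.0.16 in R 4.3.3 (glmQLFit and glmQLFTest, TMM, filterByExpr, the 4 groups together, no block), and p-values were Benjamini-Hochberg adjusted over 17291 genes, with 0.05 as threshold. FPKM served for levels only. Where a group had 0 counts, bounds use a floor of 3 counts over the group, and they cover counting error only. Library totals ran from 53588814 to 76809931, and no replicate pair agreed within sampling noise (chi-square per degree of freedom 11.3 to 32.1). Other settings were scalings, filters, DESeq2 1.42.0, limma 3.58.1, only the groups compared, the replicate number as a block and each library left out. The test was run on simulated counts in which a small set of genes changed, equally up and down, in 1 group. That setting lacks the wide shifts of these data, so it cannot judge the scaling. All 7 members are named, and list genes were named from lists of pathway and marker genes. The members and lists were chosen with earlier results of these data known, and list genes given with values were picked after these were seen. One gene of the interferon-γ list enters its counts and is not reported here by itself.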

Additional observations from a re-analysis of the deposited data

Results flagged for a closer look

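For all 7 genes the oxLDL change differed between genotypes by the interaction test in edgeR, given as the log2 change in KO minus that in WT. Of all genes tested, 41.7% were called in this test and 19.6% were called below zero. It was -2.10 for Iigp1, -1.41 for Irgm1, -1.31 for Irgm2, -2.24 for Igtp, -2.35 for Tgtp1, -1.96 for Tgtp2 and -1.58 for Ifi47. In each case all 3 WT libraries with oxLDL lay above all 3 untreated WT libraries in FPKM, and among KO libraries the same held for Ifi47 alone. Of all genes tested, 7.54% separated in this way in KO and 15.2% in WT.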

How the results depend on the processing

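All 833 values of single members under other settings, and 20 of the summed gene pairs, kept the direction and the side of the threshold of the value reported, with a largest adjusted p of 0.0383 in the called comparisons, for the interaction of Iigp1, and a smallest of 0.249 for oxLDL in KO. The number of members called was 7 for oxLDL in WT, 0 for oxLDL in KO, and 7 for KO against WT untreated, with oxLDL and for the interaction under each setting run. Over all genes, oxLDL in KO gave 2 calls by edgeR (1211 at an unadjusted p under 0.05), 97 by DESeq2, 61 with only the 2 groups, 7 without both shallow WT libraries, 6 by limma-voom, 1 without a low-count filter, 1 at 10 CPM in 3 libraries, 1 by limma on log2(FPKM + 1), 0 at log2(FPKM + 0.1), and 0 to 57 with 1 library left out, the highest without WT oxLDL replicate 1. The cause was not tested. DESeq2 also called 1 gene of the further IRG, interferon-γ and type I lists each there, against 0. Shared numbers do not pair the libraries (18 correlations of deviations from -0.0449 to 0.0310): with the replicate block that count was 0 and the members called were the same numbers. With library totals in place of TMM the median of all genes moved by over 0.1 and the share of calls that were higher was 21.1%, against 46.8%, for oxLDL in WT, 31.5%, against 47.8%, for KO against WT untreated, 69.5%, against 52.8%, with oxLDL, and 79.6%, against 53.0%, for the interaction, and limma on log2(FPKM + 1) gave 23.1, 33.0, 68.7 and 76.6% for these. Leaving out the shallow libraries and summing gene pairs were chosen after seeing the data. With 20 to 91 counts of Iigp1 in KO libraries, depth limits its fold.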
